A study of Homo sapiens with 5 samples.

Results

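The regions described here are the BG4-bound regions of chromosomes 20 and 22 in LNCaP, an established human prostate cancer cell line. The antibody BG4 recognises G-quadruplexes (G4s), and its targets were read by chromatin immunoprecipitation and sequencing. The series holds 5 samples, 4 BG4 pull-downs (replicates 1 to 4) of formaldehyde cross-linked, sonicated chromatin and 1 input, all from cells with no treatment named in the labels. Each pull-down has its own deposited list of narrow peaks, on the hg19 build. Separate cultures are not mentioned in the labels. The SDs and p-values below therefore measure only how these samples differ, which may be technical. Peaks of the 4 lists that overlapped by at least 1 bp were merged, and a merged region was kept when at least 2 lists had a peak in it. This gave 235 regions, 111 on chromosome 20 and 124 on chromosome 22, of 3554 in the whole series. They came from 473 merged regions of any list on these chromosomes, so 49.7% were kept, against 47.3% of all 7520 merged regions.

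A G-quadruplex forms when guanine-rich single-stranded DNA folds into stacked planes of guanines. Such structures are mapped mostly in open chromatin, often at active promoters, and are most frequent where DNA is rich in G and C. Chromosomes 20 and 22 are both small. Chromosome 22 is acrocentric, with a short arm of repeats that the reference leaves unresolved. Nearly all of its mapped sequence is therefore long arm, and the first peak of any list lay at position 16338680. No hg19 sequence or gene annotation was used here, so the regions are given by position, their G4 motifs, base composition and genes were not analysed, and no sequence is shown.

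The lists differed in length, and single peaks rested on few reads. They held 1746 to 6740 peaks over the genome. The median peak summit held 14 to 16 reads, recovered from the deposited values, and the weakest summits 6 or 7. On chromosomes 20 and 22 the weakest summit of every list held 8 reads.

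BG4 peaks were denser on chromosome 22 than on chromosome 20 in every list. On chromosome 20 the lists of replicates 1 to 4 held 206, 50, 117 and 64 peaks. Chromosome 22 held 200, 59, 125 and 73 in the same order. The counts were similar although the lengths were not. Between the first and last peak position, its span was 34.9 Mb, against 62.5 Mb for chromosome 20. The density of peaks on chromosome 20 was 3.30, 0.80, 1.87 and 1.02 per Mb in replicates 1 to 4. On chromosome 22 it was 5.73, 1.69, 3.58 and 2.09 per Mb. Each list was thus denser on chromosome 22, although the densities of the 2 chromosomes overlapped between lists of different length. The ratio of the 2 densities was 1.95 ± 0.16 (SD, n = 4), and it ranged from 1.74 in replicate 1 to 2.11 in replicate 2. An exact sign-flip permutation test over the 4 replicates gave a two-sided p of 0.125, the smallest that 4 replicates allow, and 0.25 after Benjamini-Hochberg adjustment over the 4 comparisons of the chromosomes. Merged regions gave 3.55 per Mb on chromosome 22 and 1.78 per Mb on chromosome 20. The choice of length mattered, and the span of chromosome 20 included a stretch of 3.91 Mb in which no list had a peak. When length was counted from position 1, which adds the unresolved short arm of chromosome 22, the ratio of peak densities was 1.33.

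**Figure D1:**
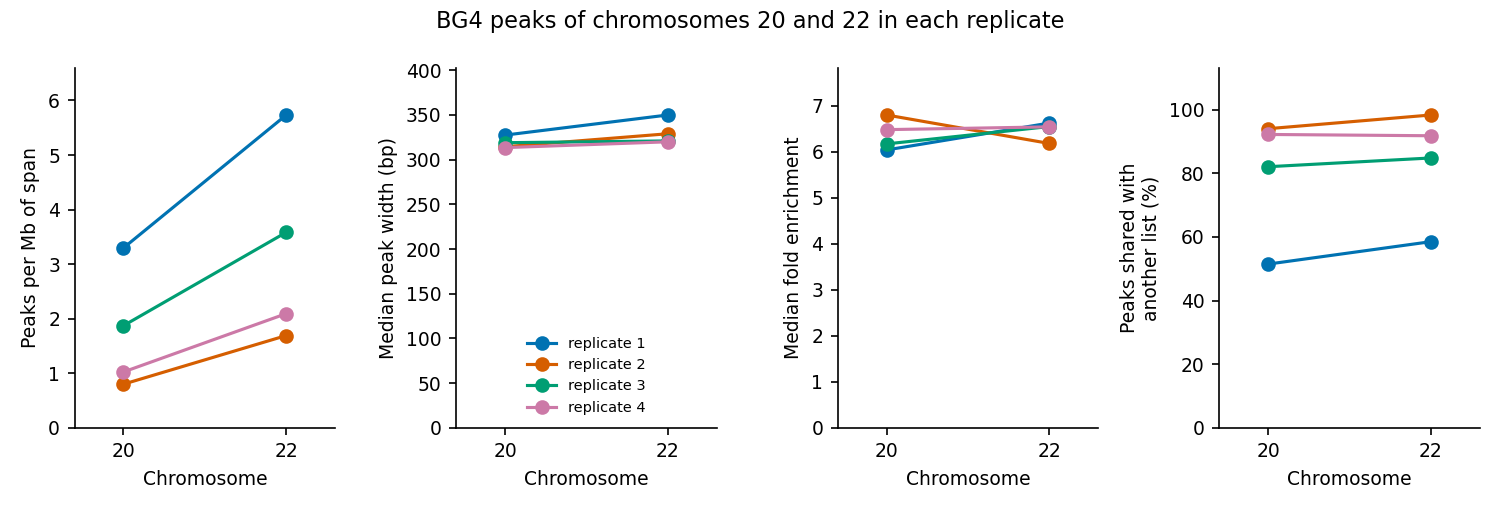
Peaks per Mb of span, median peak width in bp, median fold enrichment and the percentage of peaks shared with another list on chromosomes 20 and 22. Each line joins the values of 1 replicate. Density lies higher on chromosome 22 in 4 of 4 lists, while the widths and folds of the chromosomes lie close together.

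Gene density went in the same direction as region density. RefSeq lists 537 protein-coding genes on chromosome 20 and 451 on chromosome 22 (GRCh38 table, used for counts per chromosome only). Per Mb of span this was 8.60 and 12.9 genes, ranks 6 and 3 of the 24 chromosomes. Counted per 100 protein-coding genes, chromosome 20 held 20.7 regions and chromosome 22 held 27.5, against 17.7 over all chromosomes. Chromosome 22 ranked first of 24 on this measure and chromosome 20 ranked 6, while chromosomes 16, 17 and 19 held 26.6, 20.5 and 23.5. The ratio of chromosome 22 to chromosome 20 in peaks per 100 genes was 1.16, 1.41, 1.27 and 1.36 in replicates 1 to 4 (mean 1.3 ± 0.11, SD, n = 4). This measure was added after the data had been seen. It stayed above 1 in 4 of 4 lists (exact sign-flip permutation test against 1, two-sided p = 0.125, the smallest possible, not adjusted). It rescales the ratio per Mb by the fixed gene counts, so it was smaller than that ratio by construction. Across the 24 chromosomes, regions per Mb and genes per Mb had a Spearman's rho of 0.83, given as a description. Both measures divide by the same span, and all points come from the same 4 libraries.

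**Figure D2:**
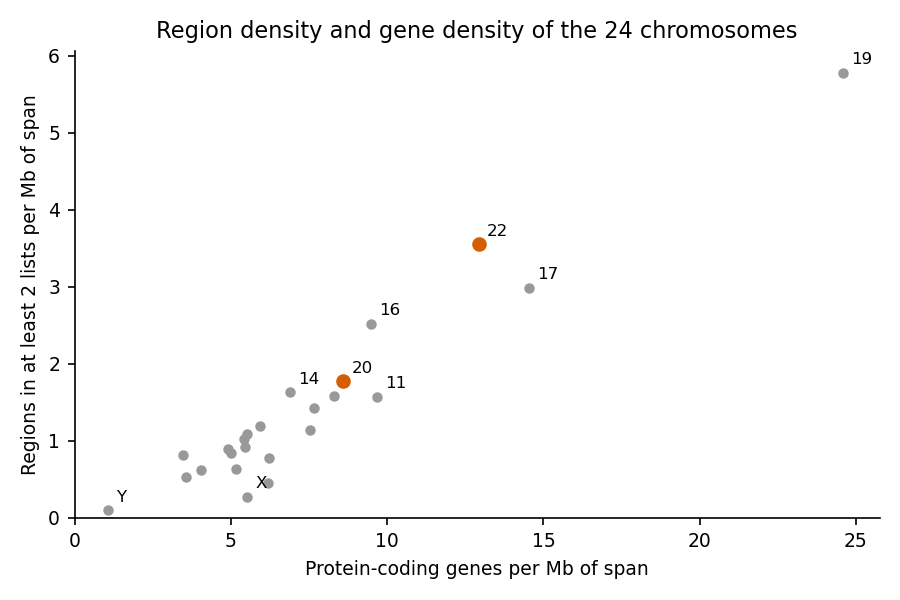
Regions in at least 2 lists per Mb against RefSeq protein-coding genes per Mb, for each of the 24 chromosomes, with some chromosomes labelled. Chromosome 22 (12.9 genes and 3.55 regions per Mb) lies above chromosome 17, which has more genes per Mb, and chromosome 20 (8.60 and 1.78) lies below both.

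Chromosome 22 had regions along most of its length. Divided into windows of 1 Mb from position 1 and between the first and last peak, the chromosome had 36 windows, of which 5 held no region and 14 held at least 5. The densest 5 windows held 44 of the 124 regions (35.5%). The densest, from 41 to 42 Mb, held 12 regions, 5 of them in all 4 lists, 4 in 3 lists and 3 in 2. In replicates 1 to 4 it held 15, 6, 12 and 9 peaks. It was the richest window of chromosome 22 in every list. The window from 50 to 51 Mb, near the end of the long arm, came next with 10 regions, but 7 of these were in only 2 lists. Its peaks numbered 14, 4, 11 and 2 in replicates 1 to 4. The lists thus differed more here, with replicate 4 low. The window from 24 to 25 Mb held 8 regions, and its 11, 3, 10 and 5 peaks put replicates 1 and 3 above the others. Some windows were even across lists. From 36 to 37 Mb there were 5 regions, of which 4 were in all 4 lists, with 6, 5, 5 and 6 peaks. By contrast, the 5 regions from 20 to 21 Mb were each in only 2 lists, and replicate 2 had no peak there.

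Chromosome 20 was sparser. It had 63 windows between its first and last peak, 20 of them without a region and 8 with at least 5. No window held more than 6 regions, and the densest 5 held 28 of 111 (25.2%), a share of 63 windows that is not comparable with that of 36 on chromosome 22. On all other chromosomes 55.3% of 2919 windows were empty and 6.03% held at least 5 regions. The share with at least 5 was 12.7% on chromosome 20 and 38.9% on chromosome 22. The windows with 6 regions lay from 0 to 1 Mb, from 30 to 31 Mb and from 62 to 63 Mb, so 2 of the 3 lay at the ends of the chromosome. Replicate 1 had 13, 11 and 15 peaks in them, replicate 2 had 2, 3 and 2, replicate 3 had 6, 7 and 7, and replicate 4 had 5, 2 and 3. Most of their peaks came from replicate 1, which also had the most on the whole chromosome (206, against 50, 117 and 64 in replicates 2 to 4). Of their 18 regions 4 were in all 4 lists, close to the share on the whole chromosome (25 of 111, 22.5%). The window from 44 to 45 Mb held 5 regions, none in more than 2 lists.

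**Figure D3:**
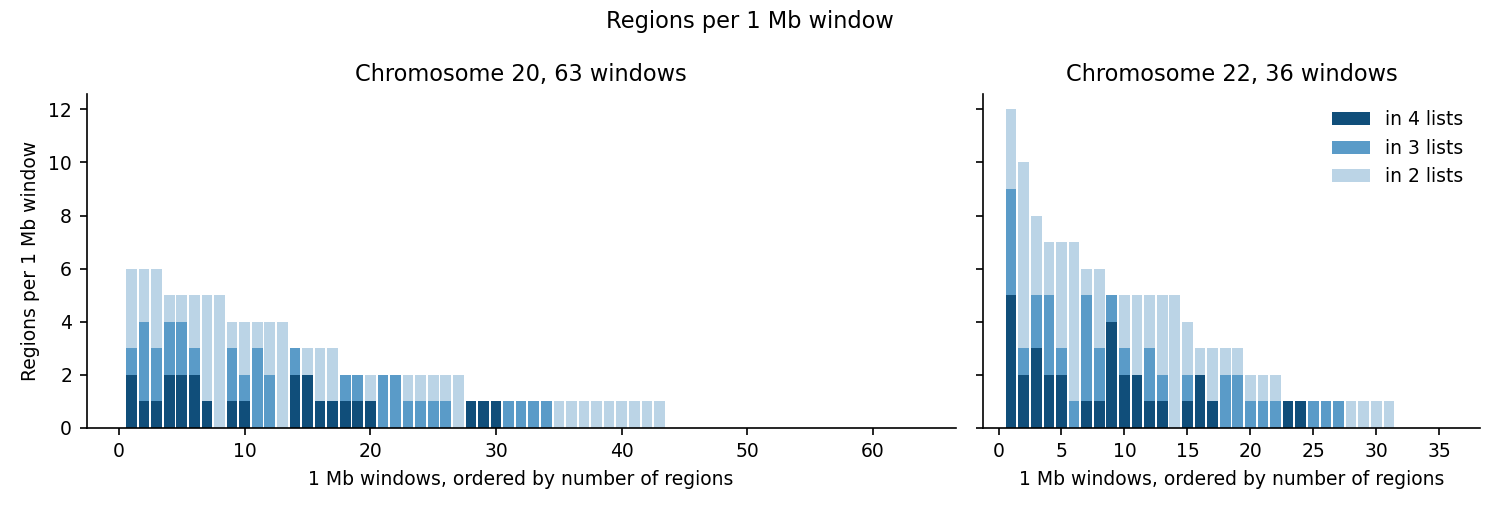
Regions per 1 Mb window of chromosome 20 (left) and chromosome 22 (right), with windows ordered from most to fewest regions and shaded by the number of lists that called each region. Chromosome 22 reaches 12 regions in a window and chromosome 20 reaches 6.

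Chromosome 20 was uneven around a stretch without peaks. No list had a peak between 26190316 and 30102087, a length of 3.91 Mb. The stretch is counted in the span of chromosome 20, and the 4 windows from 26 to 30 Mb are among its empty ones. Whether reads could be mapped there was not checked. Below it lay 32 regions at 1.23 per Mb, and above it 79 regions at 2.42 per Mb. In peaks, the density above was 1.69, 1.86, 1.86 and 1.63 times that below in replicates 1 to 4 (1.76 ± 0.12, SD, n = 4), higher in 4 of 4 lists. The stretch was chosen after it had been seen, so no test is given. The 17 regions in all 4 lists above it and 8 below it divide the same way. On chromosome 22 the longest stretch without peaks was 1.68 Mb, from 32603127 to 34282831. Regions lay at 3.44 per Mb before it and 4.01 per Mb after it, and the ratio in peaks ranged from 0.960 to 1.31.

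The number of lists that called a region was alike on both chromosomes and near that of the series. Of the 111 regions of chromosome 20, 52 were in 2 lists, 34 in 3 and 25 in all 4 (22.5%). Of the 124 of chromosome 22, 58 were in 2, 34 in 3 and 32 in all 4 (25.8%). Together 57 of 235 (24.3%) were in all 4 lists, against 24.9% of the regions of the series, and 125 (53.2%) were in at least 3, against 54%. Over all merged regions of any list, 11.8% were in all 4. The long lists supplied most of the calls. Replicate 1 had a peak in 223 of the 235 regions, replicate 3 in 202, replicate 4 in 124 and replicate 2 in 103. These shares (94.9%, 86.0%, 52.8% and 43.8%) were close to those of the series (96.2%, 85.9%, 54.2% and 42.7%). Of the 110 regions in exactly 2 lists, 71 were shared by replicates 1 and 3, which is 30.2% of the 235 regions, against 31.0% of the regions of the series. No region was shared by replicates 2, 3 and 4 without replicate 1, and the series held 23 such regions among 3554. When replicate 1 was left out, the rule gave 137 regions, 64 on chromosome 20 and 73 on chromosome 22. Without replicate 3 it gave 153 (72 and 81).

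Peaks of chromosome 22 were shared with another list slightly more often in 3 of 4 lists. The share was 51.5%, 94.0%, 82.1% and 92.2% on chromosome 20 in replicates 1 to 4, and 58.5%, 98.3%, 84.8% and 91.8% on chromosome 22. The difference was 3.42 ± 3.11 percentage points (SD, n = 4), with replicate 4 at -0.407 points. The exact sign-flip permutation test gave a two-sided p of 0.25 (adjusted 0.333), in a design that cannot go below 0.125.

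Among regions in all 4 lists, strong ones were a larger share on chromosome 22, near that of the series, than on chromosome 20. Strength is described by fold, the authors' ratio of summit reads to local background with a pseudocount added to both, and regions were ranked by the median over lists of the percentile of fold within each list. Of the regions in all 4 lists, 9 of 32 on chromosome 22 (28.1%) and 3 of 25 on chromosome 20 (12%) had a median percentile of at least 90. The share over the whole series was 24.8% of 886. Chromosome 22 supplied 7 and chromosome 20 supplied 2 of the 100 strongest regions of the series, where they held 3.61% and 2.82% of all regions in 4 lists. These counts are descriptions and the difference was not tested. The median fold over all peaks had no common direction in the 4 lists. It was 6.04, 6.80, 6.17 and 6.48 on chromosome 20 in replicates 1 to 4, and 6.62, 6.18, 6.54 and 6.54 on chromosome 22. The ratio was 1.02 ± 0.08 (SD, n = 4), higher on chromosome 22 in 3 of 4 lists (exact sign-flip permutation test, two-sided p = 0.75, adjusted 0.75). Without replicate 1 it was 0.991.

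Of the strongest regions of chromosome 22, chr22:36424667-36425426 came first. The folds in replicates 1 to 4 were 22.7, 11.95, 17.8 and 18.2, from 47, 20, 34 and 34 reads at the summit. Replicate 2 was low, yet at the 95.5th percentile of its own list. The region stood on little local background, 1.20 to 1.28 times the lowest background of a list, which is its genome-wide level. The next, chr22:41985740-41986329, was the more even of these 2. It had folds of 21.3, 16.7, 16.6 and 16.6 in replicates 1 to 4, from 52, 36, 37 and 36 reads, and lay above the 99th percentile of each list. It closed the densest window of the chromosome, whose other end held the eighth strongest region, chr22:41032646-41033149, with folds of 18.3, 11.8, 10.1 and 10.6.

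The lists also differed at other strong regions of chromosome 22. At chr22:46431486-46432131 the folds were 16.1, 14.4, 11.4 and 15.1 in replicates 1 to 4. At chr22:29279086-29279673 they were 13.0, 17.5, 12.3 and 16.7, and this was the highest fold of the chromosome in replicate 2. The order of replicates there did not follow list length, since the shorter lists of replicates 2 and 4 were high. Their backgrounds were also the lower ones, at 1.67 and 1.60 times the genome level against 3.36 and 3.42 in replicates 1 and 3. The summits of this region were not at 1 place: they lay at 29279451, 29279336, 29279441 and 29279354 in replicates 1 to 4. The outermost were 115 bp apart, which was also the median over the regions of chromosome 22 in all 4 lists. These summits held 50, 35, 43 and 35 reads, so the reads and the folds did not rank the lists alike. The fifth region, chr22:32149684-32150197, had the widest spread of fold among the 10, from 5.79 in replicate 2 to 19.5 in replicate 1. Its 14 reads in replicate 2 (95% exact Poisson interval 7.65 to 23.5) were fewer than the 47 in replicate 1 (34.5 to 62.5), intervals that cover counting error only and are not adjusted for depth. Replicates 3 and 4 gave folds of 12.3 and 12.5 there, from 35 and 26 reads. The background at this region also differed, at 1.68, 2.51, 2.56 and 1.60 times the genome level in replicates 1 to 4. The regions chr22:50247061-50247477, chr22:30685434-30685953, chr22:24181144-24181670 and chr22:45705341-45705954 completed the 10, with median folds down to 9.81.

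On chromosome 20 the strongest region was chr20:33463834-33464471. The folds were 13.8, 13.5, 19.6 and 14.2 in replicates 1 to 4, from 43, 29, 47 and 33 reads. Replicate 3 stood apart, and the other lists lay within 1 unit of fold. The region chr20:52210754-52211319 came next, with folds of 17.2, 13.8, 13.2 and 6.49 in the same order, all over the same background of 1.39 times the genome level. It held the highest fold of the chromosome in replicates 1 and 2 but lay near the middle of the list of replicate 4, at percentile 49.2. There its summit held 12 reads (95% exact Poisson interval 6.20 to 21.0), against 37 in replicate 1 (26.1 to 51.0) and 25 in replicate 2 (16.2 to 36.9). The interval of replicate 4 overlaps that of replicate 2 and not that of replicate 1, with no adjustment for depth. In replicate 4 the summit lay at 52211193, against 52210949, 52210999 and 52210973 in replicates 1 to 3. The folds and reads of this region were therefore not taken at 1 position. At chr20:23618496-23618897 replicate 1 had the lowest fold, 7.20 against 13.7, 11.2 and 9.64 in replicates 2 to 4. Its reads were not the lowest, with 22, 28, 25 and 21 in replicates 1 to 4. Its background was 2.52 times the genome level, against 1.77 in each of the other lists.

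The remaining strong regions of chromosome 20 were each highest in replicate 1. At chr20:32580861-32581790 the fold was 16.9 in replicate 1 and 8.54, 9.81 and 10.4 in the others, over a background of 3.41 times the genome level in each list. This region was also the widest of the chromosome at 930 bp, and its 66 reads in replicate 1 were the most at any region of either chromosome. At chr20:61847449-61847891 the fold was 15.4, 7.28, 10.3 and 8.33. The other 5 of the 10 were chr20:34204071-34204623, chr20:10015419-10016050, chr20:23338483-23339122, chr20:35974278-35974660 and chr20:60876987-60877506. The last was the most even, with folds of 8.85, 7.21, 8.32 and 7.87. When each list was shortened to its 1640 peaks of highest −log10 q, chr20:23618496-23618897 and chr20:10015419-10016050 were each called in 3 lists, and the other 18 of these 20 regions in all 4.

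**Figure D4:**
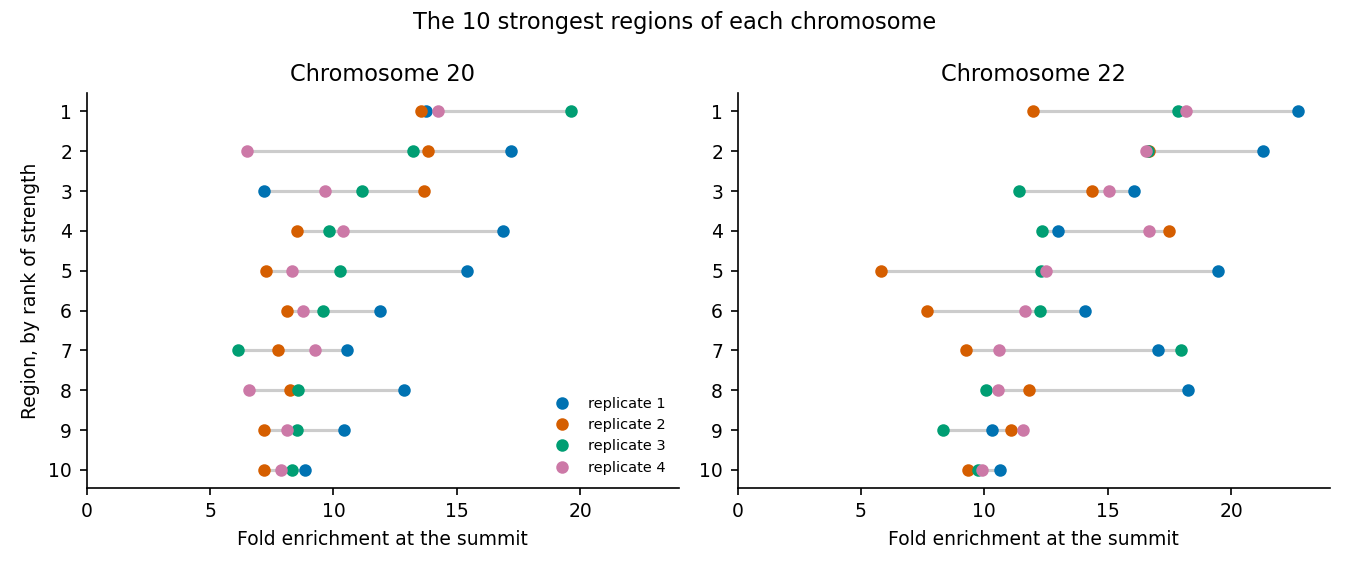
Fold enrichment at the summit in each replicate for the 10 strongest regions of chromosome 20 (left) and chromosome 22 (right), in the order of the text. Grey lines join the lowest and highest list. Folds reach 19.6 on chromosome 20 and 22.7 on chromosome 22.

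Regions of the chromosomes were alike in width. The median was 418 bp on chromosome 20 (268 to 930 bp) and 447 bp on chromosome 22 (263 to 936 bp), against 447 bp on all other chromosomes, and chromosome 20 ranked 22 of the 24 chromosomes in median width. Median peak widths were 328, 315, 319 and 314 bp on chromosome 20 in replicates 1 to 4, and 350, 329, 321 and 320 bp on chromosome 22. The ratio was 1.035 ± 0.028 (SD, n = 4), above 1 in 4 of 4 lists (exact sign-flip permutation test, two-sided p = 0.125, the smallest possible, adjusted 0.25). Regions in more lists were wider. On chromosome 20 the median width was 372 bp for regions in 2 lists, 425 bp in 3 and 545 bp in 4, and on chromosome 22 it was 390, 484 and 520 bp. Merging more peaks widens a region by construction, but single peaks also differed: in every list, on both chromosomes, peaks of regions in all 4 lists had a higher median width than peaks no other list shared. The latter were few in replicates 2 and 4, with 3 and 5 peaks on chromosome 20 and 1 and 6 on chromosome 22. In replicate 1, peaks of single-list regions had a median width of 299 bp on chromosome 20 and 291 bp on chromosome 22, and those of regions in all 4 lists 492 and 472 bp.

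**Figure D5:**
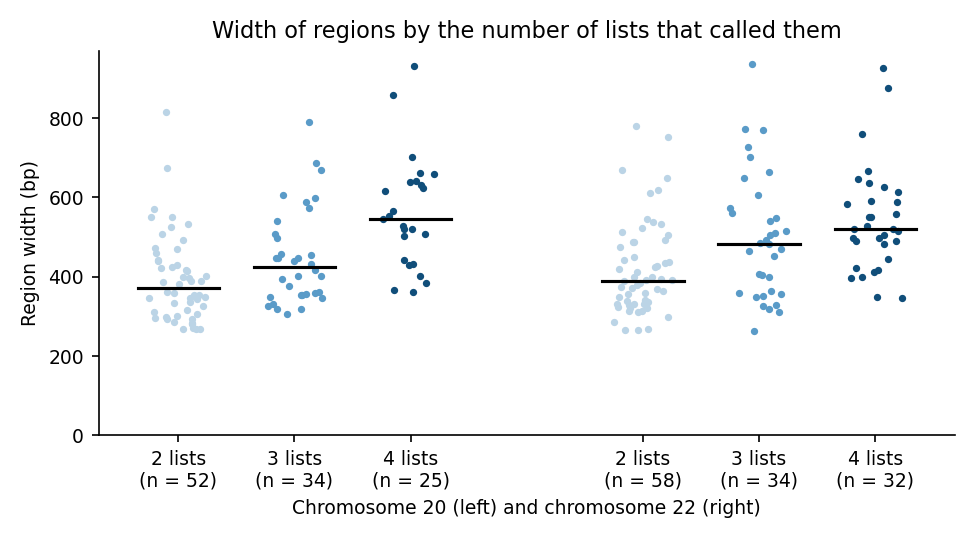
Width in bp of each region (points) on chromosomes 20 and 22 by the number of lists that called it, with black lines at the medians. The medians lie at 372, 425 and 545 bp on chromosome 20 and at 390, 484 and 520 bp on chromosome 22.

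The widest regions were not the strongest, apart from chr20:32580861-32581790. On chromosome 22 the widest were chr22:22089668-22090603 (936 bp, in 3 lists), chr22:21056881-21057807 (927 bp, in 4) and chr22:41347009-41347884 (876 bp, in 4). The next on chromosome 20 were chr20:33264321-33265177 (857 bp, in 4) and chr20:31407503-31408316 (814 bp, in 2). Only 2 of the 235 regions, chr20:33264321-33265177 and chr22:21056881-21057807, joined several peaks of 1 list. In each, replicates 1 and 3 had 1 long peak where replicates 2 and 4 had 2 shorter ones, and the strongest summits of the lists lay 548 and 461 bp apart. The background of chr22:21056881-21057807 was 3.21 to 4.27 times the genome level. Over the 57 regions in all 4 lists the median distance between the outermost summits was 110 bp, against 91 bp over the 829 such regions of the other chromosomes. The outermost summits lay within 100 bp in 14 of 25 regions on chromosome 20 and in 11 of 32 on chromosome 22 (34.4%), against 55.9% on the other chromosomes, a difference that was not tested.

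Few regions had a close neighbour. Within 10 kb of another region lay 8 of 111 on chromosome 20 (7.21%) and 11 of 124 on chromosome 22 (8.87%). The share was 11.96% on all other chromosomes and 18.5% on chromosome 19. The closest pair was chr20:60876987-60877506, in 4 lists, and chr20:60877657-60878263, in 3, with 150 bp between them. On chromosome 22 the closest were chr22:29137694-29138178 and chr22:29138346-29138659, 167 bp apart. The densest window of chromosome 22 held no pair within 10 kb, so its 12 regions were spread out.

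The median local background at peaks was similar on the chromosomes. It was 1.92, 1.71, 1.71 and 1.60 times the genome level on chromosome 20 in replicates 1 to 4, and 1.71, 1.71, 1.71 and 1.60 on chromosome 22. Over the peaks of kept regions on all other chromosomes it was 1.71 in each list, so this value was not particular to the pair. Copy number in LNCaP was not measured here, and its part in the densities was not tested. Regions just inside and just outside the rule overlapped in strength. The weakest region in 2 lists, chr20:46130411-46130800, had folds of 4.07 to 4.10 from 11 to 15 reads. On chromosome 22 the weakest was chr22:46475990-46476423, with folds of 3.76 and 4.83. Of the 238 merged regions left out, 183 (76.9%) were peaks of replicate 1, close to the share over the series, 3054 of 3966. The strongest of them on chromosome 22, chr22:38283557-38283851, had a fold of 9.31 in replicate 1. On chromosome 20 it was chr20:3996144-3996555, with a fold of 12.7 in replicate 1.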

How the data were processed

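Chromatin of LNCaP cells was pulled down with BG4 in 4 replicates, with 1 input, grouped by their titles. The submitters' processing notes name hg19, MACS2 2.1.1, SAMtools 1.11, Bowtie2 2.2.5 and bcl2fastq 1.8.4, with settings not given in the sources used here. Each of the deposited lists gives each peak's position, a score (not used), the fold at the summit, the −log10 p and the −log10 q, all from the authors' caller. Fold is on the scale of its own list, whose highest value was 29.6, 18.4, 20.7 and 22.0 in replicates 1 to 4. The chromosomes were compared by fold only within a list. For single regions the folds of the lists are set side by side, so differences between lists there may reflect scale.

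Summit reads and background were computed from the deposited fold and −log10 p, with a pseudocount of 1. A whole number of reads within 0.001 of the deposited −log10 p was found for all peaks (0 without one). Merging and read recovery were checked on simulated data.

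Chromosomes were compared within each replicate by exact sign-flip permutation over the 4 replicates, threshold 0.05. Named by position are the 10 strongest and 3 widest regions of each chromosome. Close pairs, regions at the edge of the rule and summed windows are named beside their counts. The members and lists were chosen with earlier results of these data known. The comparisons with start sites, G4 motifs and a gene list need hg19 and were not run. The RefSeq promoter sequences cover 71.5% and 68.3% of the protein-coding genes of chromosomes 20 and 22, under the 80% set for such a check, so promoter composition was not compared. Computation used scipy 1.17.1, pandas 2.3.3 and numpy 2.4.6 under Python 3.11.15, and figures used matplotlib 3.10.9.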

Additional observations from a re-analysis of the deposited data

Results flagged for a closer look

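A single replicate stood far from the rest in 3 of the 48 groups of 4 values examined. By chance this happens in about 1 in 20 such groups, a rate that does not hold for the 23 groups that are folds of regions picked for strength or width. In chr20:33463834-33464471, replicate 3 had a fold of 19.6, against 14.2 in the nearest list. Its percentiles within the lists of replicates 1 to 4 were 96.7, 98.2, 99.9 and 98.1. In chr22:41985740-41986329, replicate 1 had a fold of 21.3, against 16.7 in the nearest. The percentiles of this region were 99.8, 99.6, 99.2 and 99.2. Folds were compared here between lists, whose scales differ. The median background over the peaks of chromosome 22 was 1.60 times the genome level in replicate 4, against 1.71 in the other lists. Replicate 4 had the same median, 1.60, on chromosomes 2, 12 and 20, so it was not particular to chromosome 22. The medians of the other lists were nearly equal, so a small distance was enough for the flag.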

How the results depend on the processing

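A setting chosen after seeing the data dropped peaks whose background reached 5 times the genome level, and left 228 regions. Peak density and median width kept their direction under every setting run. The mean difference in the share of shared peaks did so too, but single lists varied. With an overlap of at least 50% of both peaks, 2 of 4 lists were higher on chromosome 22. With lists of equal length it was 3 of 4, and the lowest list was at -3.73 points. The ratio of densities was 1.95 as a geometric mean and ranged from 1.33 with length from position 1 to 2.18 with lists of equal length, and from 1.89 to 2.02 with 1 replicate left out. The ratio of median folds, 1.02, changed direction with lists of equal length (0.978) and without replicate 1 (0.991), and was at most 1.06 elsewhere. The 235 regions became 114 with lists of equal length (51 on chromosome 20 and 63 on chromosome 22) and 125 in at least 3 lists (59 and 66). With 1 replicate left out there were 137 to 222 (64 to 106 and 73 to 116), the lowest without replicate 1. These settings use fewer peaks, which lowers the counts by construction. The densest 5 windows held 35.3% of the regions of chromosome 20 and 46.0% of chromosome 22 with lists of equal length, and 41.2% of chromosome 22 with a −log10 q of at least 5. With 1 replicate left out the shares were 25.5% to 30.6% and 36.2% to 41.1%. The cause of the shifts in fold and windows was not tested. Alternatives for start sites and G4 motifs were not run, since they need hg19. No paired analysis was possible because all pull-downs form 1 group, so no replicate number links groups of samples. The chromosomes themselves were compared within each replicate. Weak peaks, with 8 reads at the lowest summits here, limit what a missing call shows.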

Other observations

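The peak of replicate 1 at chr20:3996144-3996555 had a fold of 12.7, the highest of the 3054 peaks that only replicate 1 called, and lay at percentile 95.2 of its whole list. It was chosen after its value was seen. Its summit held 40 reads (95% exact Poisson interval 28.6 to 54.5, counting error only) over a background 2.56 times the genome level, with a deposited −log10 q of 31.4. The nearest peak of another list lay 7.95 kb away, in replicate 2. The next on chromosome 20, chr20:5986455-5986788, had 20 reads, a fold of 10.9 and a background of 1.07 times the genome level, and ranked 16 among those 3054. The nearest peak of another list lay 879 kb away, in replicate 3. On chromosome 22 the highest of these peaks ranked 71.

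The folds of the 57 regions in all 4 lists ordered the regions of chromosome 22 more alike between lists than those of chromosome 20. Spearman's rho between pairs of lists ran from 0.53 to 0.81 over the 32 regions of chromosome 22 and from 0.35 to 0.56 over the 25 of chromosome 20. Over the other chromosomes it ran from 0.52 to 0.70. These are descriptions across regions, which share libraries and an input, and the difference was not tested. Peak counts per 1 Mb window were alike between lists on both chromosomes, with rho from 0.68 to 0.85 on chromosome 20 and from 0.71 to 0.86 on chromosome 22.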
